A study of Mus musculus with 2 samples.

Results

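Globin-rich barcodes of the KPCA.FSTKO tumor library were those in which the adult globin genes Hba-a1, Hba-a2, Hbb-bs and Hbb-bt together held at least 5% of the unique molecular identifiers (UMIs, 1 for each captured transcript). They were chosen by this measured globin share. Barcodes entered if fewer than 20% of their UMIs were mitochondrial and if they held over 200 but under 8000 genes. There were 91 of them among 6777 kept barcodes, which is 1.34% (exact binomial 95% interval 1.08 to 1.65%). Globin levels are therefore a description, and the results below turn on the non-globin transcripts of the same barcodes. Of the markers given for erythroid cells, Alas2 is the only gene that did not choose the barcodes. In 83 of the barcodes, called small here for their few non-globin UMIs, Alas2 was found in 70, and of the other erythroid markers checked Slc4a1, Epb42 and Car2 were found while Klf1 and Gata1 were at 0. The other 8 barcodes also carried at least 5 of 8 markers of another cell type, which goes against the label, and they are described apart.

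The study grafted female C57BL/6 J mice aged 12 to 16 weeks intraperitoneally with KPCA cells, a mouse ovarian cancer line, from which the follistatin gene Fst had been knocked out. KPCA.FSTKO carries this knockout alone. KPCA.FSTKO_hFSTL3 carries the same knockout and a human FSTL3 transgene, so both groups share the Fst knockout. At day 10 post-graft 4 omental tumors per line were pooled, dissociated with enzymes and made into 1 droplet library per line. Without a second library per line there is no replicate error and no test between lines, and all intervals cover counting error only.

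Red blood cells arise from nucleated precursors that fill with hemoglobin, a tetramer of alpha and beta globin chains that each hold a heme group. The last nucleated precursor expels its nucleus and leaves a reticulocyte, which still carries RNA and ribosomes, clears its mitochondria and organelles, and matures into an erythrocyte with little RNA. In a tumor such cells come mostly with the blood of its vessels. Adult mice make 2 alpha globin transcripts, Hba-a1 and Hba-a2, and in C57BL/6 mice 2 beta globin transcripts, Hbb-bs and Hbb-bt.

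The genes that chose the barcodes lie in 2 clusters. In GRCm38, the build of the counts, Hbb-bs spans positions 103826534 to 103828096 and Hbb-bt 103812524 to 103813996 of chromosome 7, both on the minus strand. Hba-a1 spans 32283511 to 32284465 and Hba-a2 32296489 to 32297298 of chromosome 11, both on the plus strand, and Alas2 lies on chromosome X from 150547375 to 150570638. The 150 bases before the transcription start of these genes, as RefSeq gives it on GRCm38.p6, are shown as a description of short motifs. They are Hbb-bs (chr7:103827929-103828078, minus strand), Hbb-bt (chr7:103813924-103814073, minus strand), Hba-a1 (chr11:32283522-32283671, plus strand) and Alas2 (chrX:150547267-150547416, plus strand), each written 5′ to 3′ along the gene. The gene spans above are those of GENCODE, which places the outermost start further upstream than RefSeq, so the windows of Hbb-bs and Hba-a1 lie within those spans and the windows of Hbb-bt and Alas2 overlap them. Capitals mark the CACCC box, the CCAAT box, the TATAA letters of a TATA box and AGATAA, which GATA factors are known to bind, or their reverse complements.
Hbb-bs: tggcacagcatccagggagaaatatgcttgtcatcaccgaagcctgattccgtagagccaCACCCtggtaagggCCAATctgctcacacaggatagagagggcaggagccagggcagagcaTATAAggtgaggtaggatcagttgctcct
Hbb-bt: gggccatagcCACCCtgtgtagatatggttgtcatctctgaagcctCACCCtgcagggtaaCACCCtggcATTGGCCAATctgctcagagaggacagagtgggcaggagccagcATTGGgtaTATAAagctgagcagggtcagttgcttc
Hba-a1: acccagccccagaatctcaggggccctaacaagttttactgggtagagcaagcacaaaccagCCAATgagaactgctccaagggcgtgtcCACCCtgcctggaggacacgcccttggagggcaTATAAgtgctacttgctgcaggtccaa
Alas2: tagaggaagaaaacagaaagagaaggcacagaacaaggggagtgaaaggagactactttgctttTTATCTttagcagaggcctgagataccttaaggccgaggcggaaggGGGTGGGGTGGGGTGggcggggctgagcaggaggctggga
In Hbb-bs the CACCC box begins 90 bases before the start, the CCAAT box 76 and the TATA box 29. In Hbb-bt the copies nearest to those places begin 89, 75 and 28 bases before it, with further CACCC at 140 and 104 and ATTGG at 80 and 36. Hba-a1 has CCAAT at 88, CACCC at 60 and TATAA at 27, and Hba-a2 was identical over the 147 bases that aligned. Alas2 has no TATAA and no CCAAT box in this window, but TTATCT, the reverse complement of AGATAA, at 86, and GGGTG, the reverse complement of CACCC, at 40, 35 and 30 in an unbroken row. Among all 32851 promoter windows of this length, CACCC was found on either strand in 37.4%, CCAAT in 24.5%, TATAA in 14.2% and AGATAA in 5.65%. CACCC alone of these was found in Alas2 and in the globin genes alike, and it was also the most frequent over all windows. A match describes letters only.

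Transcripts of the 2 alpha genes share 537 of 538 aligned bases, and 57.3% of the 90-base windows in the last 300 bases of Hba-a1 also occur in Hba-a2. For Hbb-bs and Hbb-bt 582 of 630 aligned positions are identical (92.4%), and 24.6% of such windows are shared. How the counting treated reads that fit both genes of a pair was not tested. The split between Hba-a1 and Hba-a2 is uncertain for this reason. Their sum and the ratio of alpha to beta UMIs are uncertain too if such reads were left out.

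The KPCA.FSTKO library held 168214773 UMIs in 7582 barcodes, of which 550 were removed for mitochondrial share and 255 for gene number, and none of those removed was globin-rich. The 6686 other kept barcodes had a median of 17558 UMIs and 4245 genes. Globin-rich barcodes held 0.377% of the kept UMIs but 98.2% of the kept globin UMIs, 296820 of 302235. Between the 2 libraries 10 kept barcodes were shared, and no globin-rich barcode was among them.

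Most globin-rich barcodes lay far above the threshold. The globin share ranged from 5.41% to 90.7% with a median of 85.8%, and 62 of the 91 were at 80% or more. It was 50 to 80% in 13 barcodes, 20 to 50% in 6, 10 to 20% in 5 and 5 to 10% in 5. The 5 barcodes just above the threshold had 5.41, 6.64, 7.36, 8.42 and 8.57% globin UMIs, and the 5 just below it had 4.71, 3.11, 3.05, 2.17 and 1.41%. Among the rest 5168 barcodes had no globin UMI and 1512 had at most 0.5%, so few barcodes lay near the threshold on either side.

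**Figure D1:**
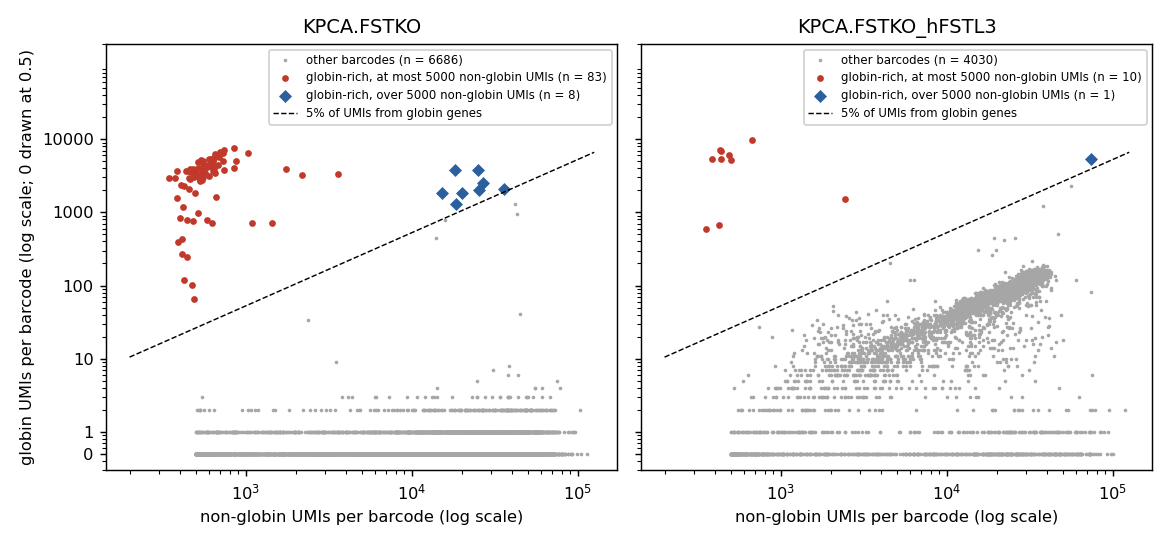
Globin UMIs against non-globin UMIs of each kept barcode on log axes, for KPCA.FSTKO (left) and KPCA.FSTKO_hFSTL3 (right), with a dashed line at a globin share of 5%. In KPCA.FSTKO 83 globin-rich barcodes (red) have 344 to 3597 non-globin UMIs and 8 (blue) have 15176 to 36065, while most of the 6686 other barcodes (grey) have 0 or a few globin UMIs. In KPCA.FSTKO_hFSTL3 the globin UMIs of most other barcodes go up with their non-globin UMIs.

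The 91 barcodes fell into 2 sets by their non-globin transcripts. In 83 small barcodes non-globin UMIs numbered 344 to 3597 with a median of 553, and 253 to 1292 genes were found (median 360). In 8 large barcodes they numbered 15176 to 36065, with 3793 to 5576 genes. No globin-rich barcode lay between 3597 and 15176 non-globin UMIs. The 8 large barcodes held 77.6% of all non-globin UMIs of the 91, so sums over all 91 mostly describe these 8, and the values below are given for the 83 small barcodes unless stated. Every other kept barcode had at least 500 UMIs in all, and 30 of the 83 small barcodes (36.1%) had fewer non-globin UMIs than that.

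The small barcodes held 160236 UMIs of Hbb-bs, 29877 of Hbb-bt, 50545 of Hba-a1 and 36912 of Hba-a2. Per barcode the 4 genes together had from 65 to 7461 UMIs. Hbb-bt made up 15.7% of the beta globin UMIs (95% interval 15.6 to 15.9%), and Hba-a2 made up 42.2% of the alpha globin UMIs (41.9 to 42.5%). There were 0.460 alpha for each beta UMI, with the limit on shared reads given above. Of the other globin genes Hbq1a, a theta globin, had 9 UMIs in 7 small barcodes and 1 UMI in all other barcodes, and its near copy Hbq1b had 7 in 5 barcodes and 45. The embryonic genes Hba-x, Hbb-bh1, Hbb-bh2 and Hbb-y had 0 UMIs in all kept barcodes of the library, so adult globin transcripts made up nearly all of the globin counted there. Hbb-bh0 was not analysed here.

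The non-globin transcripts of the small barcodes held many genes known from the last steps of red cell formation. A list of 32 measured erythroid-specific genes, none of them used by the rule, took 2.93% of the non-globin UMIs (2.79 to 3.08%) and 0.00909% (0.00894 to 0.00925%) of those of the other barcodes. In at least 1 of its genes 77 of the 83 small barcodes had a UMI, and the share per barcode ranged from 0 to 9.60%. A single such UMI does not mark an erythroid cell, since 28 of the 32 genes also had UMIs in the other, deeper barcodes. Fech was found in 31.8% of those and Bpgm in 16.2%, or in 0.972% and 0.299% when thinned to 300 non-globin UMIs. Among 1232 other barcodes within the same range of 344 to 3597 non-globin UMIs, here called low-count barcodes, the list took 0.0134% (0.0118 to 0.0151%). These share the range but are deeper, with a median of 1382 non-globin UMIs and 839.5 genes against 553 and 360 in the small set. Over all 91 barcodes it took 0.736% (0.702 to 0.771%).

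To compare single genes, UMIs were summed over each set and expressed as CPM, here the UMIs of a gene scaled to the non-globin total of the set, and a gene was called higher at a ratio of at least 2 and lower at 0.5 or less. Genes were compared where the mean CPM of both sets corresponded to at least 10 UMIs in the smaller set. For the small barcodes 681 genes were compared, of which 83 (12.2%) were higher and 51 (7.49%) lower than in the other barcodes. With the other barcodes also limited to at most 5000 non-globin UMIs, an alternative added after the data were seen, 726 genes were compared and 100 (13.8%) were higher and 117 (16.1%) lower, so the balance turned. For all 91 barcodes 3814 genes were compared, with 144 higher (3.78%) and 149 lower (3.91%). The choice of denominator matters, since globin takes most of a small barcode. With CPM of all UMIs every ratio of the small set is multiplied by 0.161, so that any ratio between 1 and 6.19 turns. For the 91 barcodes 33 genes were then higher and 3748 lower, of 5557 compared. A gene found in few other barcodes was compared only if it was high in the globin-rich ones, so counts of higher genes per list are descriptions and support nothing.

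Heme synthesis genes were led by Alas2, the erythroid form of the enzyme that starts the pathway. It had 418 UMIs in 70 of the 83 small barcodes, with 0 to 18 per barcode, and 200 UMIs in 167 of the 6686 other barcodes. In CPM this was 7822 against 1.41, a ratio of 5539 (4669 to 6589). With the other barcodes also limited to at most 5000 non-globin UMIs the ratio was 1996. When every barcode was thinned to 300 non-globin UMIs, which left out none, 75.9% of the small barcodes and 0.0897% of the other barcodes still had an Alas2 UMI. Fech, which inserts iron as the last step, had 65 UMIs in 41 small barcodes and a ratio of 56.6 (43.5 to 72.3). Tspo2, an erythroid membrane protein related to the translocator protein, had 9 UMIs in 8 small barcodes and 1 UMI among all others. Of 11 heme synthesis genes 7 had a UMI, and the list stood at 9357 against 115 CPM. Both of the 2 that could be compared were higher, next to 12.2% of all 681 genes compared. The filter compared a gene rare in the other barcodes only if it was high here, so this count supports nothing.

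Iron genes were mixed. Slc25a37 (mitoferrin-1), which carries iron into the mitochondria of erythroid cells, had 94 UMIs in 51 small barcodes and was 77.3 times (62.3 to 94.9) as high as in the other barcodes. Glrx5, needed for iron-sulfur clusters, was at a ratio of 5.80 (3.86 to 8.39), or 0.937 when scaled to all UMIs. Ftl1, the ferritin light chain, was at 2.83 (2.56 to 3.12), or 0.456 scaled to all UMIs. Fth1, the ferritin heavy chain, did not pass the size rule at 1.10 (0.990 to 1.23). Transferrin receptor Tfrc had 3 UMIs, all in 1 barcode. Of the 11 iron genes 8 had a UMI, and 3 of the 4 compared were higher, next to 12.2% of all genes compared. The same limit of the filter holds.

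Membrane genes of the red cell were counted rarely. Slc4a1 (band 3, the anion exchanger) had 14 UMIs in 11 small barcodes and 0 UMIs in the 6686 other barcodes. Against a floor of 3 counts over those barcodes, Slc4a1 was at least 12367-fold higher, with its own 14 UMIs taken without counting error. Epb41 (protein 4.1), which other cells also use, had 119 UMIs in 54 small barcodes and a ratio of 72.4 (59.8 to 86.9). Epb42 had 3 UMIs, and the skeleton genes Ank1 and Gypc had none. Of 20 membrane and skeleton genes 12 had a UMI, and both of the 2 compared were higher, next to 12.2% of all genes compared. The limit of the filter holds here too.

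Enzymes of the red cell cytosol had 1219 UMIs at a list ratio of 20.01, most of them from Bpgm and Gpx1. Bpgm, which makes the 2,3-bisphosphoglycerate that lowers the oxygen affinity of hemoglobin, had 470 UMIs in 61 small barcodes with 0 to 27 per barcode, and a ratio of 869 (781 to 965). Gpx1, which reduces peroxides, had 514 UMIs in 45 barcodes, 54 of them in 1, and a ratio of 27.5 (25.1 to 30.0). Car2 (carbonic anhydrase 2) had 36 UMIs at a ratio of 72.1, Cat (catalase) 24 at 18.6, and Blvrb (biliverdin reductase B) 45 at 9.45 (6.89 to 12.7). Prdx2, an abundant red cell peroxiredoxin, was at 3.37 (2.70 to 4.16), or 0.544 when scaled to all UMIs. All 7 of the list that could be compared were higher, next to 12.2% of all genes compared and with the same limit of the filter. Car1 had no UMI in these barcodes, and Ahsp was not analysed here.

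Genes tied to terminal maturation and clearance included several found in most small barcodes. Mkrn1, a ubiquitin ligase, had 322 UMIs at a ratio of 156 (139 to 174), and Tent5c, a poly(A) polymerase, 170 at 694 (583 to 823). Ube2l6, an enzyme of ISG15 and ubiquitin conjugation, had 156 UMIs in 60 barcodes at 556 (465 to 662). Bnip3l, the receptor through which reticulocytes clear mitochondria, had 166 UMIs in 52 barcodes at 16.8, and Ube2o, a ubiquitin enzyme that removes ribosomal proteins, 49 in 32 at 41.0. Isg20 was at 23.1, Ube2b at 9.44 and the polyubiquitin gene Ubb at 4.34 (3.83 to 4.88), the last at 0.700 when scaled to all UMIs. All 9 of the 18 genes that could be compared were higher, next to 12.2% of all genes compared and with the same limit of the filter. Trim58 and Fbxo7 had no UMI and Trim10 had 4.

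**Figure D2:**
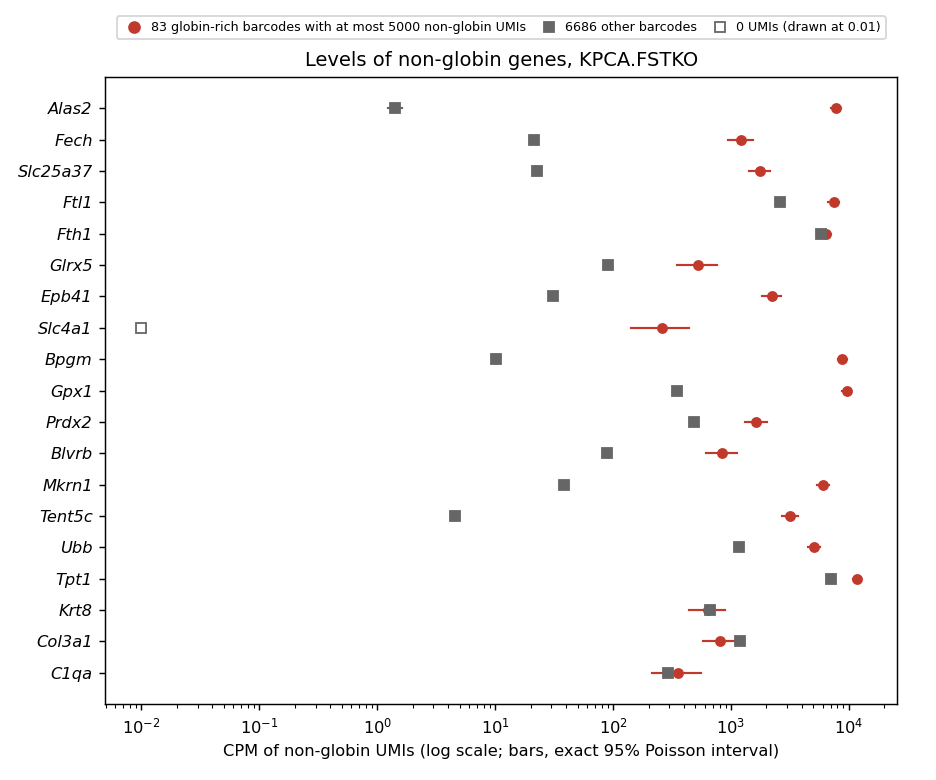
CPM of non-globin UMIs on a log axis for named genes in the 83 small globin-rich barcodes (red) and the 6686 other barcodes (grey squares, open at 0.01 where no UMI was found), with exact 95% Poisson intervals as bars. Alas2 stands at 7822 against 1.41 CPM and Bpgm at 8795 against 10.1, while Krt8, C1qa and Fth1 nearly coincide.

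Transcription factors that drive earlier erythroid stages had few UMIs. Gata1, Klf1, Tal1, Nfe2, Gfi1b, Hemgn, Ldb1 and Bcl11a had 0 UMIs in the small barcodes, which allows up to 56.1 CPM each (3 counts). Lmo2 had 7 UMIs, Foxo3 3, Sox6 1 and Zfpm1 1. In the other barcodes Gata1 had 3 UMIs and Klf1 50, so the depth of the small set, 53438 non-globin UMIs in all, cannot show whether these factors differed. The progenitor genes Kit, Cd34, Gata2, Myb, Epor, Itga4 and Tfr2 had 0 UMIs and Spi1 had 2. Of 8 cycle genes all had a UMI, with 29 UMIs in sum and a list ratio of 1.11. Birc5 and Top2a had 6 UMIs each, Cdk1 5 and Pcna 4, at ratios from 0.767 to 1.89.

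Among the genes outside the lists with the largest ratios were Apol11b, Rsad2 and Isca1. Apol11b, an apolipoprotein L family member, had 29 UMIs in 17 small barcodes and 1 UMI in all others, a ratio of 76855 (12743 to 3138940). Rsad2 (viperin), best known as an interferon-induced gene, had 55 UMIs in 29 barcodes at 177 (132 to 233). Isca1, a factor of iron-sulfur cluster assembly, had 47 in 37 barcodes at 92.0 (67.3 to 123). Among the smallest ratios were those of P4hb (0.152), Foxp1 (0.173), Sdc4 (0.227) and Tmem176b (0.295), each with 3 to 7 UMIs in the small set. Over all 91 barcodes the smallest were those of the antibody genes Igkc (0.0138) and Ighm (0.0456), then Rbms3 (0.158), F13a1 (0.160) and Piezo2 (0.184).

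Several widely expressed transcripts filled the rest. Gm42418, which overlaps ribosomal RNA sequence, had the most UMIs of any non-globin gene outside the mitochondrial and ribosomal protein genes. It had 2790 in all 83 small barcodes, at 11.0 times (10.6 to 11.5) the level of the other barcodes. It took 5.22% of the non-globin UMIs, against 2.50% in the low-count barcodes. Ribosomal protein genes took 19.1%, between the 13.8% of the low-count barcodes and the 23.5% of all others. Mitochondrial transcripts took 4.97%, against 4.19% and 3.97%, but 1 small barcode alone had 54.1%. That barcode passed the filter at 16.6% because the filter counts globin in the total, so it was looser for small barcodes. Without this barcode the share was 3.32%, with none left out of the other sets, and the median over the 83 barcodes was 3.11%. Malat1, a nuclear non-coding RNA, took 0.558%, against 1.70% in the low-count barcodes and 1.31% in all others. Even so 81 of the 83 small barcodes had a Malat1 UMI, and after thinning 85.5% had one against 79.1% of the others, so the lower share was not seen as fewer barcodes with the transcript. Tpt1 was at a ratio of 1.67 (1.54 to 1.81) and S100a6 at 0.819 (0.729 to 0.918).

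The small barcodes differed among themselves along the number of globin UMIs. In the 15 barcodes under 1000 globin UMIs, Hbb-bt was 2.94% of beta globin (2.49 to 3.46%), and erythroid-specific genes took 0.278% of non-globin UMIs (0.178 to 0.414%). In the 14 with 1000 to under 3000, these were 12.7% (12.3 to 13.2%) and 2.16% (1.82 to 2.54%). In the 39 with 3000 to under 5000, they were 15.2% (14.97 to 15.40%) and 2.97% (2.77 to 3.17%). In the 15 with 5000 or more, they were 18.8% (18.5 to 19.1%) and 5.53% (5.09 to 5.99%). The summed shares thus rose from each set to the next. Their intervals treat UMIs as independent and leave out the spread between barcodes, so they do not test this order. Per barcode Hbb-bt ranged from 0 to 7.41%, 4.51 to 17.7%, 4.93 to 22.8% and 11.8 to 22.0% in the 4 sets, so neighbouring sets overlapped, and only the lowest and the highest shared no value. The globin UMIs chose the barcodes. They stand on 1 axis of the pattern for the erythroid-specific share and on both axes for the Hbb-bt share. The pattern was seen in these data first and is a description.

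Alas2, Bpgm and Gpx1 were lowest in the first of these sets and highest in the last. Under 1000 globin UMIs Alas2 had 7 UMIs in 3 of 15 barcodes, Bpgm 4 in 3 and Gpx1 none. At 5000 or more Alas2 had 143 UMIs in 15 of 15 barcodes, Bpgm 176 in 15 and Gpx1 223 in 14. The steps were not alike for each gene: Alas2 was at 811, 7856, 7749 and 13867 CPM over the 4 sets, and Bpgm at 463, 2927, 9677 and 17068 CPM. Across the 83 small barcodes Spearman's rho with globin UMIs was 0.80 for the Hbb-bt share, 0.80 for the erythroid-specific share, 0.15 for the Hba-a2 share of alpha globin and 0.02 for the mitochondrial share. These describe barcodes of 1 library whose counts share the depth of the barcode.

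**Figure D3:**
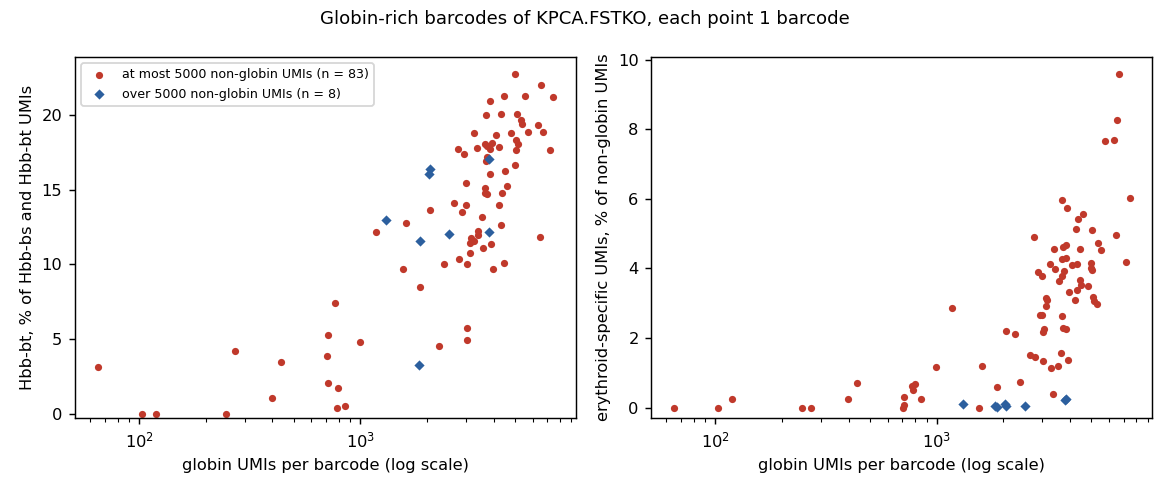
Hbb-bt as a percent of beta globin UMIs (left) and erythroid-specific UMIs as a percent of non-globin UMIs (right) against globin UMIs per barcode on a log axis, each point 1 of the 91 globin-rich barcodes. The 15 small barcodes (red) under 1000 globin UMIs lie at 7.41% Hbb-bt or less, and the 8 large barcodes (blue) lie near 0 on the right panel.

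The 6 small barcodes with no UMI of any erythroid-specific gene had 65 to 1562 globin UMIs, and Hbb-bt was 6.74% (5.60 to 8.04%) of their beta globin. Of Ube2l6, Epb41 and Mkrn1, which are on other erythroid lists, these 6 barcodes together held 2, 1 and 1 UMIs.

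The 8 large barcodes carried globin together with the transcripts of another cell type. At least 5 of 8 markers were found for cancer cells in 5 of them, for fibroblasts in 2 and for macrophages in 1, and no second set reached that number in any. Their globin share was 5.41 to 17.2%, but their globin UMIs numbered 1311 to 3828, which lies within the range of the small barcodes. Alas2 had 3, 4, 5, 6, 7, 8, 12 and 16 UMIs in the 8 barcodes. As CPM Alas2 was 233 times (172 to 312) the level of the other barcodes and Bpgm 24.0 times (17.4 to 32.2). Erythroid-specific genes took 0.104% of their non-globin UMIs (0.0899 to 0.120%), and in counts 5 to 62 UMIs per barcode. Hbb-bt was 13.2% of their beta globin, between 3.26 and 17.1% per barcode. The cancer marker list stood at 1.01 times, the fibroblast list at 0.928 times and the macrophage list at 1.37 times its level in the other barcodes. Krt8 had 181 UMIs across all 8, and C1qb had 67 in 2. Doublets, droplets that hold 2 cells, were neither called nor removed, and their part in these 8 barcodes was not tested.

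Among the small barcodes the full marker set of another type was rare, while single markers were found. Only 2 of 83 (2.41%) carried such a set, 1 of cancer cells and 1 of both cancer cells and macrophages, against 24.7% of the low-count barcodes, in which more genes are found per barcode. The 8 cancer markers all had a UMI, 142 in sum, at 0.748 times their level in the other barcodes. Krt19 was at 0.797 and Krt8 at 0.961 (0.665 to 1.34). Fibroblast markers had UMIs for 7 of 8 genes, 69 in sum at 0.620 times, with Col3a1 at 0.670 (0.485 to 0.902) and 9 UMIs of Dcn. Macrophage markers had UMIs for 7 of 8 genes, 64 in sum at 1.33 times, with C1qa at 1.21 (0.731 to 1.90) and 20 UMIs of C1qb, of which 8 were in 1 barcode. These 3 lists were thus within a factor of 2 of their level in the pooled other barcodes.

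Further lists had few UMIs. T cell and mast cell markers had 0, which allows up to 56.1 CPM, above their 17.2 and 23.8 CPM in the other barcodes, so this depth cannot show a difference. The B cell list had 1 UMI (Cd79b), and the endothelial list 4 (Egfl7 2, Cdh5 1) at a list ratio of 1.19. Neutrophil markers had 7 UMIs (S100a8 4, S100a9 3) and platelet markers 9 (Pf4 8, Ppbp 1), at list ratios of 0.723 and 1.52. Markers of macrophages that clear red cells were led by Blvrb, which the enzyme list also holds, and Hmox1 had 5 UMIs in 3 barcodes. Pancreatic acinar genes had 64 UMIs at a list ratio of 4.74, with Ctrb1 at 5.76 (3.56 to 8.81), or 0.930 when scaled to all UMIs, and Try5 at 9 UMIs. After thinning, C1qa was found in 15.7% of the small barcodes, in 55.9% of barcodes with the macrophage marker set and in 1.08% of those with the cancer marker set. The median depth before thinning was 553, 13542 and 28853 non-globin UMIs, respectively. Where these transcripts in the small barcodes came from was not tested.

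**Figure D4:**
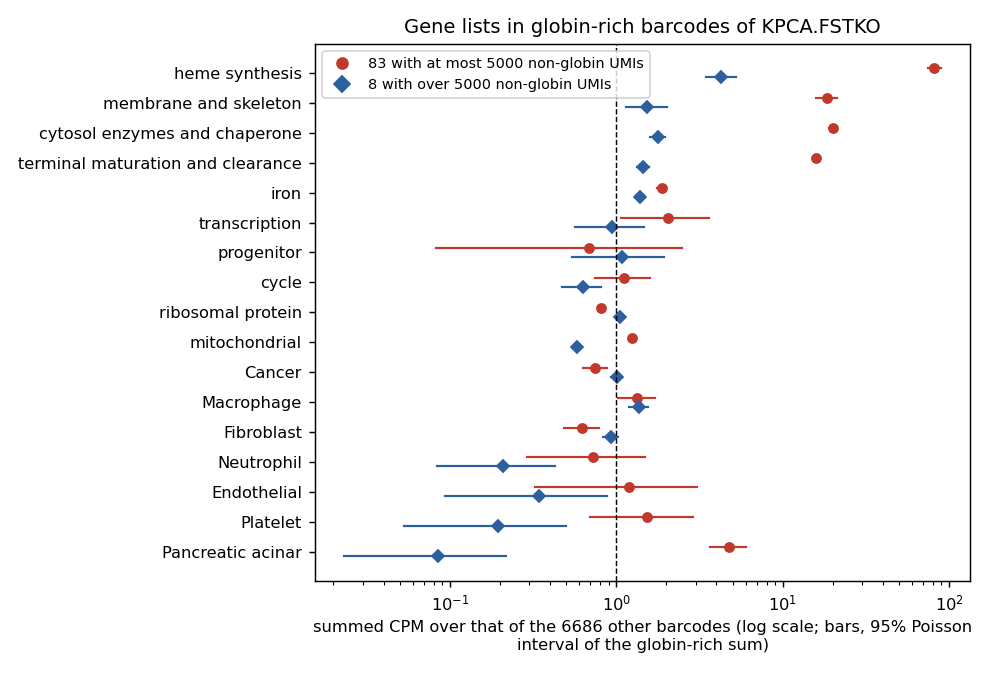
Summed CPM of each gene list over that of the 6686 other barcodes, on a log axis, for the 83 small (red) and 8 large (blue) globin-rich barcodes of KPCA.FSTKO, with bars for the 95% Poisson interval of the globin-rich sum and a dashed line at 1. Heme synthesis stands at 81.5 times in small and 4.27 times in large barcodes, while the ribosomal protein and cancer marker lists lie near 1 in both.

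Globin UMIs outside the globin-rich barcodes were few in this library. Of the other barcodes 22.7% (21.7 to 23.7%) had a globin UMI, and globin was 0.00382% of their UMIs. By marker set of cell types that should lack globin, it was found in 24.0% of barcodes with the macrophage set, 24.7% with the cancer set and 23.8% with the fibroblast set, with median depths of 13542, 28853 and 21114.5 UMIs. With the T cell set it was found in 13.2% (6.23 to 23.6%) of 68 barcodes, at a median depth of 5142.5 UMIs. Just 5 of these barcodes held 3551 of the 5415 globin UMIs. Hbb-bt was 8.84% (7.95 to 9.78%) of their beta globin. The lowest small globin-rich barcode had 65 globin UMIs, and the highest of the other barcodes had 1314. Globin counts thus overlapped between the sets, which only the globin share of the rule kept apart.

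In KPCA.FSTKO_hFSTL3 the same rule found 11 globin-rich barcodes of 4041, which is 0.272% (0.136 to 0.487%). The groups cannot be told apart from their libraries here, and globin in the other barcodes differed between these. In KPCA.FSTKO_hFSTL3 82.8% of the other barcodes had a globin UMI, at a median share of 0.325%, and the globin-rich barcodes held 21.7% of the globin UMIs. Small barcodes were 10 of the 11. Erythroid-specific genes took 2.61% (2.24 to 3.03%) of their non-globin UMIs, next to 2.93% in KPCA.FSTKO, and Hbb-bt was 16.9% of beta globin, next to 15.7%. Alas2 had 57 UMIs in 7 of 10 barcodes at a ratio of 3395 (2473 to 4600) and Bpgm 38 in 7 at 518 (364 to 718). All 7 barcodes with 5000 or more globin UMIs had Alas2, and the 3 with fewer had none. The acinar marker set was found in 8 of the 10 small barcodes, and in 3629 of the 4030 other barcodes of that library. The 1 large barcode, with 74048 non-globin UMIs, carried the marker sets of 4 cell types and 5 Alas2 UMIs.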

How the data were processed

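Single cells of pooled tumors were measured in 1 library per cell line with a 10x Genomics 3-prime kit. The authors ran Cell Ranger against the mm10 reference, with version 3.1.0 in the processing notes and version 7.2.0 in the header of the matrices, and deposited raw UMI counts per gene and called barcode, without normalization and without the filters named in the methods. Those filters were applied here (mitochondrial share under 20%, more than 200 and fewer than 8000 genes), and doublets were kept. No column of per-sample values was left unused.

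Globin-rich barcodes and gene lists were chosen with earlier results of these data known. Counts were summed over barcodes and scaled to CPM of non-globin UMIs. Intervals at 95% are exact Poisson for sums, Clopper-Pearson for shares and conditional binomial for ratios. With 1 library per line no test was run. Small barcodes had at most 5000 non-globin UMIs. A barcode carried the set of another cell type with at least 5 of 8 markers found (acinar 8 of 15). Named genes are the globins, Alas2, the 4 genes with most UMIs of each erythroid list, every listed transcription factor, progenitor gene and other globin, the 10 largest and 5 smallest ratios, the 10 with most UMIs and the 2 leading markers of each other type, of which some are not reported here. Tfrc, Car1, Car2, Cat, Bnip3l, Ube2o, Ube2b, Isg20, Epb42, Ank1, Gypc, Trim10, Trim58 and Fbxo7 lie outside this rule and were named after their values were seen.

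Alternatives changed the globin threshold, filters, size rule, barcodes summed and scaling (TMM from edgeR 4.0.16, for scaling alone). Promoter sequences are those of RefSeq on GRCm38.p6, and gene spans and transcripts those of GENCODE on GRCm38. The steps were tested on simulated data. Scripts ran in R 4.3.3 and in Python 3.11.15, with matplotlib 3.10.9, pandas 2.3.3, scipy 1.17.1 and numpy 2.4.6.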

Additional observations from a re-analysis of the deposited data

How the results depend on the processing

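Of 64 alternatives 27 stayed within the counting interval or within 1.5 times the reported count and 37 moved. Of the 64, 7 were added after the data were seen. Only the Alas2 ratio could be labelled reversed, and no alternative reversed it. Gene numbers were judged by count alone, so 100 higher genes of 726 (13.8%) stayed next to 144 of 3814 (3.78%). Whether more genes were higher or lower differed between settings. The erythroid-specific share of non-globin UMIs in all 91 barcodes (0.736%) depended on which barcodes were summed. It was 0.504% at a globin threshold of 2%, 1.49% at 10%, 2.98% at 20% and 3.44% at 50%. It was 2.93% in barcodes with at most 5000 non-globin UMIs, 2.99% without those carrying the marker set of another type, 2.76% as a mean over barcodes and 0.174% with over 500 genes required. The Alas2 ratio (1420) was 1000.1, 2486, 4328 and 4946 at those thresholds, 5539 with at most 5000 non-globin UMIs, 5706 without other marker sets, 3984 as a mean over barcodes and 324 with over 500 genes required. With both sets limited to at most 5000 non-globin UMIs, an added alternative, it was 1996. Of 726 genes compared 100 were then higher and 117 lower.

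Requiring over 500 genes left 14 globin-rich barcodes in KPCA.FSTKO. In KPCA.FSTKO_hFSTL3 it left 2, and a globin threshold of 2% found 21. Numbers of higher and lower genes (144 and 149 of 3814 compared) were 37 and 10 of 3814 at a ratio of 4. They were 58 and 20 of 1153 with a minimum of 30 UMIs, and 1388 and 14538 of 24589 with no minimum. With CPM of all UMIs they were 33 and 3748 of 5557. At a globin threshold of 20% they were 86 and 49 of 671, and at 50% 84 and 41 of 563. They were 80 and 42 of 639 without other marker sets. In barcodes with at most 5000 non-globin UMIs they were 83 and 51 of 681. The number of genes compared differed, so these counts are to be read as shares of it. The globin share of the other barcodes was 0.00382% as a ratio of sums, next to a median of 0. TMM scaling gave 147 higher and 145 lower genes of 3795 compared. No paired analysis was possible because each line has 1 library. Depth limits genes with few UMIs, since 0 UMIs in the small barcodes allow up to 56.1 CPM.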
